A study of Mus musculus with 2 samples.

Results

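The 10 cytokine genes of gut T cells described here are Ifng, Tnf, Lta, Ltb, Il2, Il10, Il17a, Il22, Csf1 and Tgfb1. They were chosen by symbol from the deposited gene lists, 10 of 55357 genes, and all 10 were found in the lists of both libraries. Their raw UMIs (unique molecular identifiers, each counted as 1 captured transcript) were followed by library, by cell and by lineage of the producing cell. The 2 libraries hold T cells of mouse ileum, 1 labelled Control and 1 labelled SAP. According to the design text, dendritic cells were first exposed to phages of healthy or of SAP mice, then met gut T cells of GF mice, and FucoID, an enzymatic surface tag passed on by contact, separated the T cells that had touched a dendritic cell. The GF origin of the T cells and the culture with dendritic cells are shared by both libraries. The labels do not say which phages belong to Control, whether the sequenced cells were the tagged ones, or the strain, age and number of the mice, so the libraries are called by their labels only.

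Cytokines are secreted or surface-bound proteins through which T cells instruct their neighbours. Interferon gamma (Ifng) and tumour necrosis factor (Tnf) activate macrophages and epithelium, interleukin 2 (Il2) is a growth factor of T cells, interleukin 10 (Il10) restrains inflammation, and interleukins 17A and 22 (Il17a, Il22) act on the epithelium to raise its defences. Lymphotoxins alpha and beta (Lta, Ltb) shape lymphoid tissue, Csf1 supports macrophages, and transforming growth factor beta 1 (Tgfb1) is made as a latent protein and supports the residence of T cells in the gut epithelium. Many cytokine transcripts are induced by receptor signals and decay fast, so a snapshot finds them in a part of the cells that can make them.

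Of the deposited barcodes, 5160 Control and 4523 SAP barcodes were taken as T cells, with 16876345 and 16054118 UMIs. Their median depth was 3140.5 UMIs in Control and 3436 in SAP, and their median mitochondrial share was 1.18% and 1.47%. The 6 T cell markers summed to 7214 and 7114 CPM (UMIs of a gene per 1000000 UMIs of the cells named), with 0 of 6 markers at 0 in either library. Markers of other cells were also read in them: the 4 NK cell markers summed to 1213 and 1146 CPM, the 5 innate lymphoid markers to 92.7 and 88.3 CPM and the 6 epithelial markers to 89.8 and 79.4 CPM, each with 0 markers at 0. The 5 B cell markers summed to 27.4 and 35.1 CPM, the 5 plasma cell markers to 52.4 and 30.6 CPM with Mzb1 at 0 in both, the 4 mast cell markers to 92.3 and 86.3 CPM with Fcer1a at 0 in both, and the 8 myeloid and dendritic markers to 185 and 176 CPM with Flt3 at 0 in both. The part of such cells in the results was not tested. The libraries share 6 barcodes. With 1 library per group no test between the groups can be made, and every interval below is a 95% interval that covers counting error only: it does not cover the spread between cells or between animals, and it is too narrow where few cells carry most UMIs.

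Promoter sequences of 9 of the 10 genes were matched by symbol in the RefSeq table (build GRCm38.p6), and Il10 was not. The 100 bases before the annotated start are printed for 4 genes in which a script found a TATA box core near the start and for the broadly detected Ltb and Tgfb1, in which it found none. Capitals mark TATAAA, the core of a TATA box, and its positions count back from the start.
Ifng, chr10:118440946-118441045, plus strand: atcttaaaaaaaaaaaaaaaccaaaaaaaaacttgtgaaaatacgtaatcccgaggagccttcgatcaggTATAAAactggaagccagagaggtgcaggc
Tnf, chr17:35202008-35202107, minus strand: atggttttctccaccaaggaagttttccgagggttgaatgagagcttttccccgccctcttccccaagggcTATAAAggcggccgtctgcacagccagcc
Il2, chr3:37125955-37126054, minus strand: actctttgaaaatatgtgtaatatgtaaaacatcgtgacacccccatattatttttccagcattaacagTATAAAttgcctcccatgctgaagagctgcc
Il17a, chr1:20730805-20730904, plus strand: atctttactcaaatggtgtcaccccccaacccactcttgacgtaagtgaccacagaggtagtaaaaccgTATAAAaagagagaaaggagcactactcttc
Ltb, chr17:35194407-35194506, plus strand: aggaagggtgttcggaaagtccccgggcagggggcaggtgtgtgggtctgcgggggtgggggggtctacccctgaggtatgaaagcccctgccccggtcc
Tgfb1, chr7:25686902-25687001, plus strand: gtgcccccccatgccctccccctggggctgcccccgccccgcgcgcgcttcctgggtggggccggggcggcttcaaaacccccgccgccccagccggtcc

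TATAAA stood at -30 in Ifng, -29 in Tnf, -31 in Il2 and -31 in Il17a, so 4 of the 9 matched genes hold it between -40 and -20 on the gene's own strand. Of 32851 RefSeq promoters 1.99% do, and 13.6% hold it on either strand anywhere from 250 bases before to 50 after the start. In Lta and Il22 the letters stood farther away, at -167 and -170, and they were not found in the windows of Ltb, Csf1 and Tgfb1. In the 250 bases before the start Tgfb1 holds 21 CpG dinucleotides, against 10 in Tnf, 10 in Csf1, 9 in Lta, 6 in Ifng, 6 in Ltb, 4 in Il17a, 3 in Il22, 2 in Il2 and a median of 6 over those promoters. A match of letters is a description of the sequence only. Some members are neighbours in the genome: in the RefSeq gene order Ltb, Tnf and Lta follow each other, Il17a lies next to Il17f, Il2 next to Il21, and 1 protein-coding gene, Iltifb, lies between Il22 and Ifng.

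In T cells 3 members were abundant and 7 were scarce, and the level did not follow the number of cells that carried the transcript. Ifng stood at 190.0 CPM in Control (183.5 to 196.7) and 176 in SAP (169.97 to 183), Tgfb1 at 186 (179 to 193) and 184 (177 to 191), and Ltb at 169.9 (164 to 176) and 143 (137 to 149). The intervals of Ifng and Tgfb1 overlap in both libraries, and that of Ltb lies below them in both. The kit reads 1 end of each transcript, so these levels need no division by gene length, although capture can still differ between genes.

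The scarce members began with Il17a at 30.8 CPM in Control (28.2 to 33.5) and 30.6 in SAP (28.0 to 33.5), and Tnf at 18.5 (16.5 to 20.7) and 22.1 (19.8 to 24.5). Il22 stood at 12.7 CPM in Control (11.0 to 14.5) and 3.74 in SAP (2.85 to 4.81), and Il10 at 7.23 (6.003 to 8.63) and 4.17 (3.23 to 5.30). Il2 stood at 3.20 CPM (2.40 to 4.17) and 5.42 (4.34 to 6.68). From Il17a to Il2 neighbours in this order had separate intervals in Control, while in SAP the intervals of Il2, Il10 and Il22 overlap one another. Lta stood at 1.01 CPM (0.587 to 1.61) and 1.43 (0.908 to 2.15), and Csf1 had 4 UMIs in each library.

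**Figure D1:**
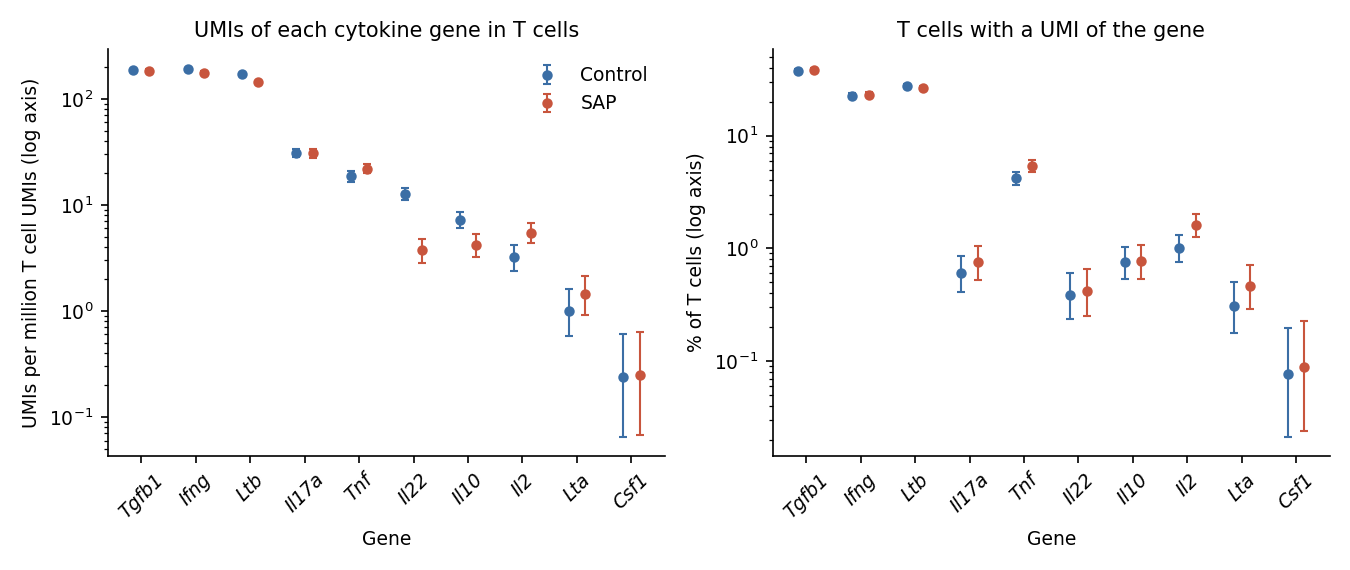
Left, CPM of each gene over all T cell UMIs; right, percent of T cells with at least 1 UMI of the gene; both on log axes, by library, with 95% counting intervals. Tgfb1, Ifng and Ltb are found in many cells, while Il17a, next to them by level, reaches a share of 0.601% in Control and 0.752% in SAP.

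Tgfb1 was detected in 1926 of 5160 Control T cells (37.3%) and 1744 of 4523 SAP T cells (38.6%), Ltb in 1424 (27.6%) and 1195 (26.4%), and Ifng in 1162 (22.5%) and 1041 (23.0%). Tnf was detected in 216 cells (4.19%) and 245 (5.42%), and Il2 in 52 (1.01%) and 73 (1.61%). Tnf thus had fewer UMIs than Il17a in more cells: Il17a was found in 31 Control cells (0.601%) and 34 SAP cells (0.752%). Il10 was found in 39 and 35 cells, Il22 in 20 and 19, Lta in 16 and 21, and Csf1 in 4 and 4.

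Because SAP cells were deeper, the shares were also taken after each cell was thinned to a depth of 1000 UMIs; 389 Control and 372 SAP cells were too shallow for this. The thinned share of Ifng was 12.2% in Control (11.2 to 13.1) and 12.0% in SAP (11.0 to 13.0), that of Tgfb1 16.0% (14.9 to 17.0) and 16.0% (14.9 to 17.1), and that of Ltb 13.0% (12.1 to 14.0) and 11.5% (10.6 to 12.6). Thinned shares of Tnf were 1.84% (1.48 to 2.27) and 2.38% (1.94 to 2.90), and those of Il17a 0.419% (0.256 to 0.647) and 0.458% (0.276 to 0.714). For all 10 members the thinned intervals of the libraries overlap. Fewer than 25 thinned cells per library carried Il2, Il10, Il17a, Il22, Lta or Csf1, so these shares have wide intervals.

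Droplets can hold free RNA, so the members were also read in barcodes that should lack them. The 19 Control and 52 SAP barcodes outside the T cells with at least 3 UMIs of epithelial markers had median depths of 27790 and 30003.5 UMIs. In them Ifng was found in 3 of 19 (15.8%) and 3 of 52 (5.77%), beside 22.5% and 23.0% of T cells. By CPM it stood at 5.31 (1.10 to 15.5) and 1.98 (0.409 to 5.80), under the levels of the T cells. These barcodes were far deeper than the T cells, so a like count of free UMIs per droplet gives a lower CPM in them. The same holds for the thinned share. Neither measure can therefore show that the level of a member in T cells is clear of background. After thinning, 0 of 19 (which allows up to 15.8%) and 1 of 52 (1.92%) carried Ifng. Ltb stood at 26.6 CPM (14.9 to 43.8) and 1.98 (0.409 to 5.80), from 3 barcodes in each library, and Tgfb1, which many cell types make, at 62.0 (43.1 to 86.2) and 50.9 (40.2 to 63.6).

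The remaining members were at or near 0 in those barcodes. Il22, Il2 and Lta had 0 UMIs in both libraries, for which 3 counts would be 5.31 CPM in Control and 1.98 in SAP. Tnf had 0 and 2 UMIs, Il17a 0 and 2, and Il10 1 and 0. Csf1 had 2 UMIs in 1 Control barcode (3.54 CPM) and 3 UMIs in 3 SAP barcodes (1.98 CPM), above its 0.237 and 0.249 CPM in T cells. The Csf1 of T cells can thus not be set apart from background by this comparison. Il2 in Control and Lta in both libraries lie under the level that 3 counts allow and cannot be set apart from background even by CPM. Nor can Il10 in Control, whose T cell level was 4.08 times that of the reference with an interval of 0.719 to 163. Because the reference barcodes were far deeper, the remaining values are not shown to be clear of background either. The wider set of 248 Control and 303 SAP barcodes outside the T cells still held T cell markers at 574 and 332 CPM, and its thinned Ifng share was 11.54% and 11.49%, so it could not serve as a reference. The epithelial reference was not free of T cell RNA either, with UMIs of T cell receptor genes at 158 CPM in Control and 124 in SAP. Whether its UMIs of the members came from free RNA or from attached T cells was not tested.

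The UMIs of Il17a, Il22 and Il10 sat in very few cells. Of the 519 Il17a UMIs of Control, 50% lay in 5 of 31 cells, whose counts were 85, 71, 43, 41 and 41. Of the 492 of SAP, 50% lay in 3 of 34 cells, with 142, 90 and 57. The single highest cell held 16.4% and 28.9% of the gene's UMIs.

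Il22 was the most uneven in Control, where 1 cell held 96 of 214 UMIs (44.9%) and the next had 26, 19 and 17. In SAP the highest Il22 cells had 13, 10, 5 and 5 of 60 UMIs. Il10 had 122 UMIs in Control, with 23, 13 and 11 in the highest cells, and 67 in SAP, with 11, 4 and 4. For these 3 genes the number of cells with a UMI, not corrected for depth, was the same in both libraries to within a few cells. The libraries differ in the height of the top cells.

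The abundant members were spread widely. It took 160 Control and 170 SAP cells to reach 50% of the Ifng UMIs, 306 and 265 for Ltb, and 542 and 472 for Tgfb1. The highest Ifng cell had 67 UMIs in Control and 31 in SAP, 2.09% and 1.09% of the gene's UMIs. Ifng stood between the rare and the broad genes, since the 152 Control and 137 SAP cells with at least 5 UMIs held 49.0% and 45.4% of its UMIs. Tnf, Il2 and Lta were mostly single UMIs: 77.8% and 71.4% of Tnf cells, 98.1% and 95.9% of Il2 cells and 93.8% and 95.2% of Lta cells had 1 UMI.

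The variance of UMIs over cells divided by their mean, which is 1 for pure counting, gives the spread as 1 number per gene. It was 44.2 in Control and 70.6 in SAP for Il17a, and 50.6 and 6.39 for Il22. It was 8.87 and 6.34 for Ifng, 8.78 and 3.67 for Il10, 3.13 and 2.91 for Ltb, 2.25 and 1.90 for Tnf and 1.67 and 1.95 for Tgfb1. It was 1.10 and 2.59 for Il2. By this measure Ifng lay above Il10 in both libraries, and Il22 above Il17a in Control only.

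**Figure D2:**
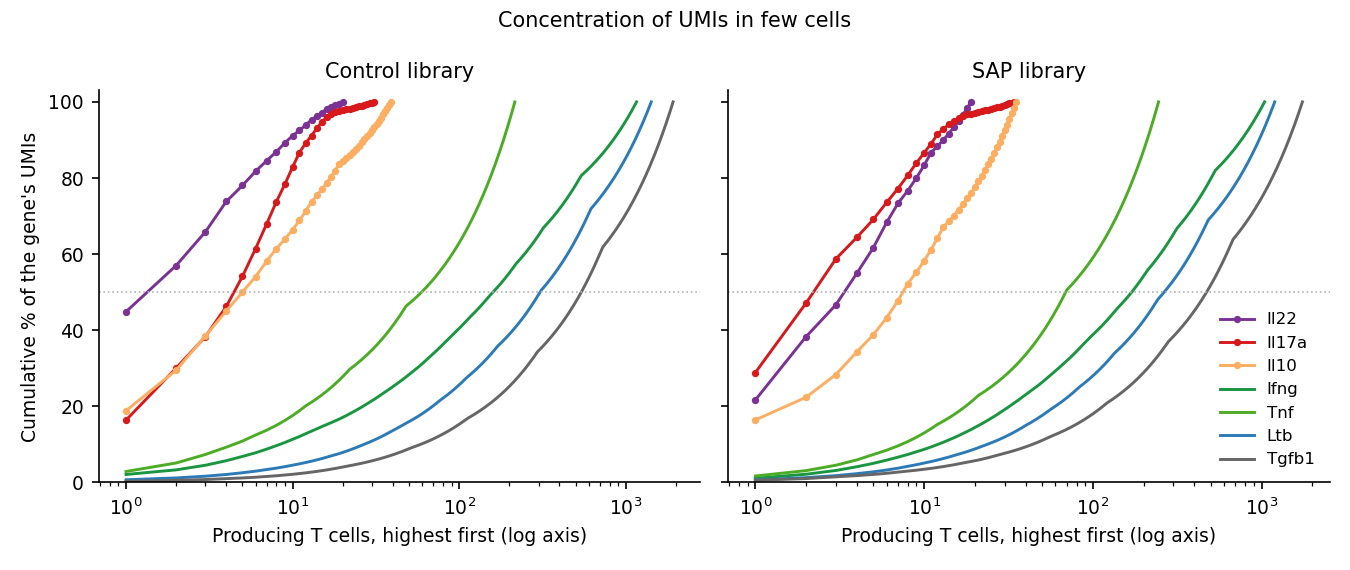
Cumulative percent of each gene's UMIs (y axis) over its producing T cells ranked from the highest (x axis, log), 1 panel per library; the dotted line marks 50%. Il22, Il17a and Il10 cross the line within 8 cells in both libraries, and Ifng, Ltb and Tgfb1 only after 160 cells or more.

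Between the libraries the abundant members lay close to each other, and none of the 5 members that met the expression limit was 1.5-fold apart. The limit, 20 CPM in Control or SAP together with a sum of 50 UMIs, was met by 5463 genes, of which 0.128% were at least 1.5-fold higher in SAP and 0.0732% at least 1.5-fold lower. The SAP over Control ratio was 0.928 for Ifng (0.882 to 0.977), 0.990 for Tgfb1 (0.941 to 1.04), 0.842 for Ltb (0.796 to 0.889), 1.19 for Tnf (1.02 to 1.39) and 0.997 for Il17a (0.879 to 1.13). Their median was 0.990, beside 1.04 over all 5463 genes. With TMM scaling the Tnf ratio was 1.13 (0.969 to 1.32) and that of Tgfb1 0.942 (0.895 to 0.990), so which of these intervals holds 1 depends on the scaling.

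Of the members under the limit, Il2 was higher in SAP, at 54 and 87 UMIs, a ratio of 1.69 (1.19 to 2.42), and 1.55 (1.07 to 2.25) without the highest cell of each library. Il10 was lower, at 122 and 67 UMIs, a ratio of 0.577 (0.422 to 0.784), while its share of cells differed little, with a ratio of 1.02 (0.630 to 1.66). With each cell capped at 5 UMIs the Il10 ratio was 0.746 (0.528 to 1.05), an interval that holds 1. Il22 was lower, at 214 and 60 UMIs, a ratio of 0.295 (0.218 to 0.394). Without the highest cell of each library it was 0.419 (0.292 to 0.592), with each cell capped at 5 UMIs 0.727 (0.490 to 1.07), and its share of cells had a ratio of 1.08 (0.547 to 2.14). These shares of cells were not corrected for the deeper SAP cells. After thinning, Il22 was found in 15 Control and 8 SAP cells, 0.314% (0.176 to 0.518) and 0.193% (0.0832 to 0.379). Il10 was found in 18 and 16 thinned cells, 0.377% and 0.385%. Whether fewer SAP cells carried Il22 was not tested. For both genes the differences in UMIs rest on a few Control cells. For Il10, the 7 Control cells with at least 5 UMIs held 58.2% of the gene's UMIs, beside 1 such SAP cell with 16.4%. Lta had a ratio of 1.42 (0.727 to 2.84).

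The Il17a ratio depended on single cells as well. Without the highest cell of each library it was 0.848 (0.734 to 0.978). Without the 5 Control and 11 SAP T cells over 15000 UMIs it was 0.704 (0.612 to 0.808), because 2 of those SAP cells, of 18805 and 15982 UMIs, held 90 and 57 Il17a UMIs. Both had alpha and beta receptor UMIs and 0 UMIs of Trdc, Cd8a and Cd8b1, and the second had 23 UMIs of Trgc1. Doublet removal took out barcodes with 33 Il17a UMIs in SAP and 0 in Control, and 1 of the barcodes shared by the libraries held 30 of the Control Il17a UMIs and 5 of the Control Il10 UMIs. Without the shared barcodes the ratio was 1.06 for Il17a and 0.602 for Il10.

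**Figure D3:**
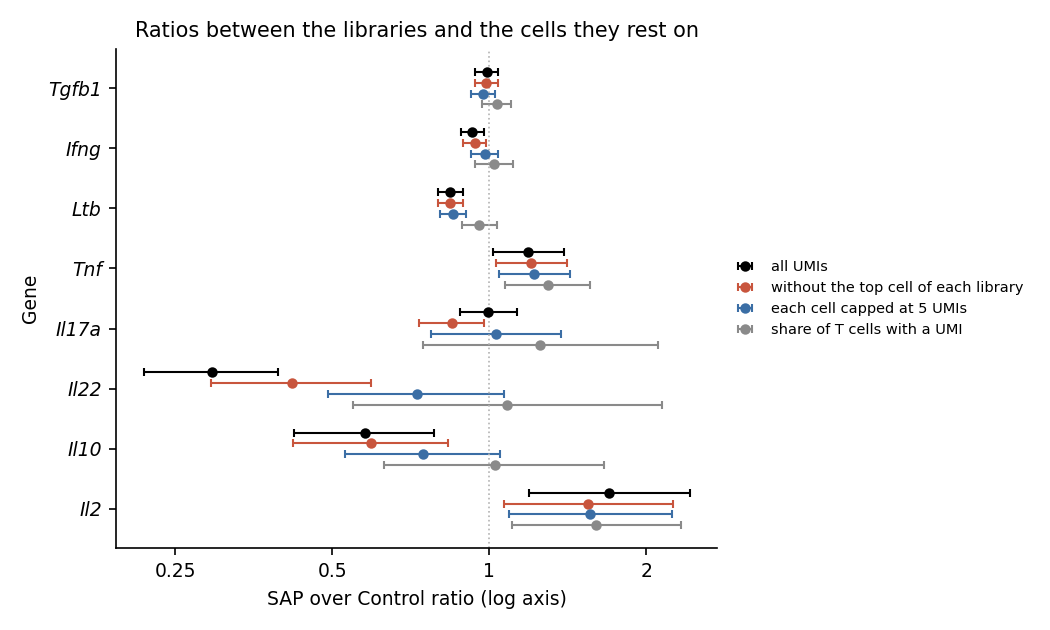
SAP over Control ratio (x axis, log) of 8 members from all UMIs, without the highest cell of each library, with each cell capped at 5 UMIs, and from the share of T cells with a UMI, with 95% counting intervals; the dotted line marks 1. For Ltb, Tnf and Il2 the 3 ratios from UMIs lie on the same side of 1 with their intervals. For Il22 and Il10 the low ratio from all UMIs moves toward 1 when each cell counts less. The share of T cells is not corrected for depth.

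To find which cells made each cytokine, T cells were sorted into 6 classes by the UMIs of 4 lineage genes. Cells with at least 2 UMIs of Trdc, the constant chain of the delta receptor, formed the gamma delta class (34.7% of Control and 36.2% of SAP T cells). The others were split by Cd4 alone (3.39% and 3.43%), Cd8b1 without Cd4 (10.7% and 12.0%), Cd8a alone (32.9% and 31.0%), Cd4 together with Cd8a or Cd8b1 (1.07% and 1.41%), and none of these UMIs (17.2% and 16.1%). The last class was shallower, with a median of 2373 and 2205.5 UMIs, so it can hold cells of any lineage whose coreceptor was missed. It carried Cd40lg, a gene of CD4 helper cells, at 45.6 and 39.3 CPM, against 133 and 113 in the Cd4 class and 1.99 and 0.459 in the gamma delta class. In the Cd4 class 6 of 10 members in Control and 8 of 10 in SAP stood at least 2-fold above the other T cells, beside 5.01% and 5.04% of all genes that met the limit. The counts are over all 10 members, also those under the limit, and include Csf1, from 1 UMI in each library. In the class without lineage UMI it was 5 and 5 members, beside 1.04% and 1.07%. In the gamma delta class it was 0 and 1, beside 0.129% and 0.143%, in the Cd8b1 class 0 and 1, beside 0.624% and 0.746%, and in the Cd8a only class 1 and 0, beside 0.329% and 0.37%. The gamma delta and Cd8a only counts are Csf1 alone, from 3 and 2 UMIs and with intervals that hold 1, and the Cd8b1 count is Tnf, at 2.07-fold (1.60 to 2.67).

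Ifng was made in every class and was highest where Cd4 and Cd8 UMIs met. In the class with Cd4 and Cd8 it stood at 766 CPM in Control and 560.1 in SAP, from 28 of 55 and 38 of 64 cells. It stood at 348 and 349.8 CPM in the Cd4 class, 272 and 312 in the Cd8b1 class, 269 and 288 in the class without lineage UMI, 160.3 and 124 in the Cd8a only class and 131 and 110.4 in the gamma delta class. By number most producers came from the large classes: 32.7% and 31.4% of Ifng cells were gamma delta and 29.3% and 25.6% Cd8a only. The median depth of producers was 3319 and 3583 UMIs against 3086 and 3385.5 in the other T cells.

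The small difference of Ifng between the libraries was not alike in all classes. SAP was lower in the gamma delta class, with a ratio of 0.845 (0.764 to 0.934), in the Cd8a only class, with 0.777 (0.699 to 0.863), and in the class with Cd4 and Cd8, with 0.732 (0.581 to 0.921). It was higher in the Cd8b1 class, with 1.15 (1.02 to 1.29), and the intervals of the Cd4 class (1.01, 0.831 to 1.22) and of the class without lineage UMI (1.07, 0.949 to 1.21) hold 1. Without the highest cell of each library the last was 1.14 (1.003 to 1.29). None of the 6 was 1.5-fold apart. Among all genes that met the limit within a class, the share at least 1.5-fold higher in SAP was 0.486% in the gamma delta class, 6.38% in the Cd4 class, 4.43% in the Cd8b1 class, 0.585% in the Cd8a only class, 6.01% with Cd4 and Cd8 and 5.08% without lineage UMI. The share at least 1.5-fold lower was 0.144%, 3.77%, 2.08%, 0.23%, 7.05% and 1.29% in the same order, so a 1.5-fold difference is more common in the small classes. The difference between classes was not tested.

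Tnf and Ltb, neighbours in the genome, were both highest in the Cd4 class. Tnf was highest in the Cd4 class, at 60.5 CPM in Control and 75.6 in SAP, where 22 of 175 and 32 of 155 cells carried it. It stood at 42.9 and 41.6 CPM without lineage UMI, 35.0 and 43.6 with Cd4 and Cd8, 21.9 and 40.3 in the Cd8b1 class, 12.0 and 13.4 in the Cd8a only class and 10.1 and 11.6 in the gamma delta class. The Cd8b1 class was the only class whose Tnf interval excludes 1 between the libraries, at 42 and 81 UMIs in 31 and 50 cells, a ratio of 1.84 (1.25 to 2.74), in a class where 4.43% of all genes that met the limit were at least 1.5-fold higher in SAP. Without the highest cell of each library it was 1.91 (1.28 to 2.89).

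Ltb, the chain that anchors lymphotoxin to the membrane, was also highest in the Cd4 class, at 417 CPM in Control and 315 in SAP, with a UMI in 99 of 175 and 82 of 155 cells. It stood at 271 and 257 CPM without lineage UMI, 255 and 142 with Cd4 and Cd8, 201 and 151 in the Cd8b1 class, 146 and 128 in the gamma delta class and 114 and 96.2 in the Cd8a only class. SAP was the lower library in all 6 classes, and the interval excludes 1 in 5 of them, all but the class without lineage UMI. The class ratios were 0.755 (0.625 to 0.912) in the Cd4 class, 0.750 (0.643 to 0.874) in the Cd8b1 class, 0.556 (0.357 to 0.860) with Cd4 and Cd8, 0.879 (0.8004 to 0.966) in the gamma delta class, 0.844 (0.747 to 0.953) in the Cd8a only class and 0.949 (0.838 to 1.07) in the remaining class. The share of Ltb cells, not corrected for the deeper SAP cells, had a ratio of 0.957 (0.886 to 1.03). After thinning to equal depth the shares were 13.0% in Control (12.1 to 14.0) and 11.5% in SAP (10.6 to 12.6). Lta, the secreted partner chain, had 17 and 23 UMIs, of which 5 and 6 lay in the Cd4 class.

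**Figure D4:**
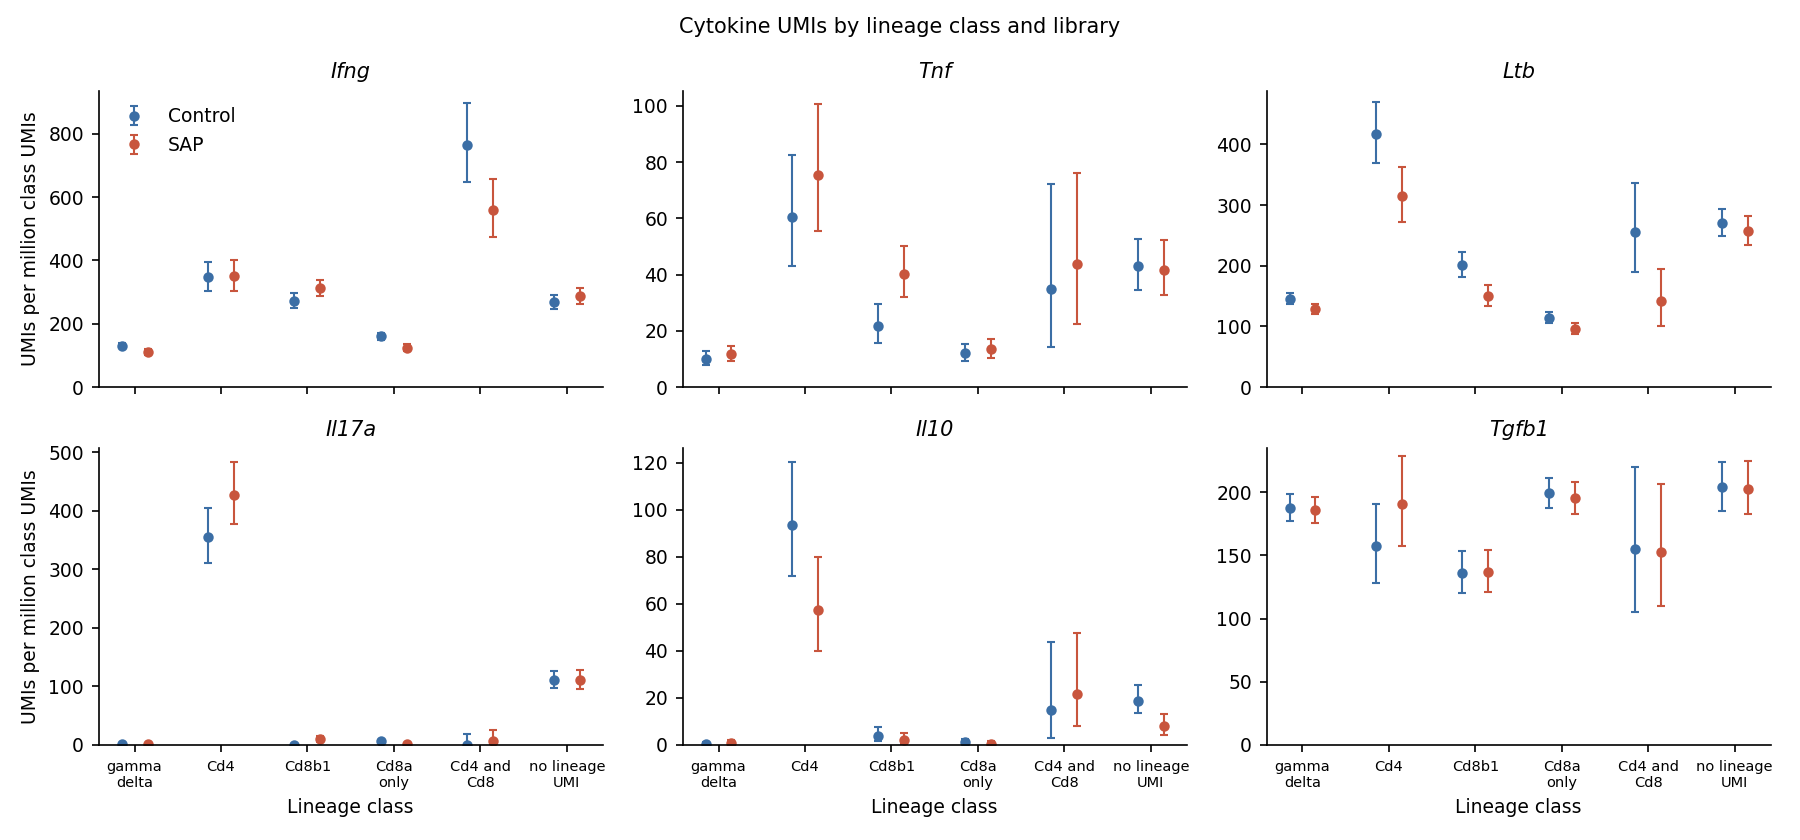
CPM over the UMIs of the class (y axis, from 0, own scale per panel) for 6 members in 6 lineage classes (x axis), by library, with 95% counting intervals. Il17a and Il10 are highest in the Cd4 class, Ltb lies lower in SAP in each class, and Tgfb1 stays between 136 and 204 CPM in every class.

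Il17a, which gamma delta cells are known to make in some tissues, lay here mostly outside the gamma delta class. It stood at 355 CPM in Control and 427 in SAP in the Cd4 class, from 9 and 10 cells, and at 111 and 111 CPM without lineage UMI, from 16 and 10 cells. Of the 197 SAP UMIs of the latter class 142 lay in 1 cell, and its SAP over Control ratio was 1.00047 with all cells and 0.397 (0.287 to 0.541) without the highest cell of each library. In the Cd4 class 85 of the 235 Control UMIs lay in 1 cell, and 90 and 57 of the 260 SAP UMIs lay in 2 cells over 15000 UMIs. In the gamma delta class Il17a stood at 1.84 and 1.07 CPM, 12 and 7 UMIs in 3 and 5 of 1793 and 1636 cells. The Cd8b1 class had 0 UMIs in 553 Control cells, which allows a share of up to 0.542%, and 19 UMIs in 4 SAP cells, 16 of them in 1 cell. Of the cells with at least 5 Il17a UMIs, 1 of 16 in Control (6.25%) and 0 of 14 in SAP had a Trdc UMI, against 44.5% and 45.4% of the T cells without Il17a, and 8 and 9 had a Cd4 UMI. Alpha and beta chain UMIs do not separate the lineages here, since the gamma delta class itself held Trbc2 at 920.4 and 926 CPM.

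Il17a producers carried other transcripts of helper cells of this kind. Il17f, its neighbour and close relative, was found in 10 of 31 and 11 of 34 producers, 32.3% and 32.4%, against 0.156% and 0.2005% of the other T cells. Maf, a transcription factor of several helper programmes, was found in 71.0% and 58.8% against 8.56% and 9.09%, and Icos, a costimulatory receptor, in 51.6% and 50% against 5.83% and 7.06%. Gzma, a granzyme of most cells here, was less frequent in producers, at 67.7% and 70.6% against 92.2% and 90.2%.

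Il22, like Il17a, lay mostly in the Cd4 class and the class without lineage UMI, in unlike parts in the libraries. In Control 201 of 214 UMIs lay in 14 cells without lineage UMI (92.7 CPM) and 9 UMIs in 3 Cd4 cells (13.6 CPM). In SAP 26 of 60 UMIs lay in 7 cells without lineage UMI (14.6 CPM) and 26 in 7 Cd4 cells (42.7 CPM). Of these Cd4 cells, 2 of over 15000 UMIs held 13 and 2 of the 26 UMIs. The ratio was therefore 0.158 (0.101 to 0.238) in the class without lineage UMI, where 1.29% of all genes that met the limit were at least 1.5-fold lower in SAP, and 3.14 (1.42 to 7.61) in the Cd4 class, where Il22 was under the limit. The split rests on few coreceptor UMIs per cell. The Control cell with 96 Il22 UMIs had 2819 UMIs, 12 of Trbc1 and 0 of Cd4, Cd8a, Cd8b1 and Trdc. None of the 9 Control and 4 SAP cells with at least 5 Il22 UMIs had a Trdc UMI, against 44.4% and 45.4% of the T cells without Il22.

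Il10 was likewise found in the Cd4 class, at 93.8 CPM in Control and 57.5 in SAP from 9 of 175 and 14 of 155 cells, and without lineage UMI at 18.9 and 7.87 CPM from 17 and 8 cells. With Cd4 and Cd8 it stood at 15.01 and 21.8 CPM, and in the Cd8b1, Cd8a only and gamma delta classes at 3.65 CPM or below in both libraries. In the Cd4 class the ratio was 0.613 (0.393 to 0.943), in a class where 3.77% of all genes that met the limit were at least 1.5-fold lower, and 0.669 (0.385 to 1.14) without the highest cells, from 39 and 24 UMIs, an interval that holds 1. Producers carried Maf in 66.7% and 74.3% against 8.49% and 8.96% of other T cells, Icos in 59.0% and 65.7% against 5.70% and 6.93%, and Ctla4, an inhibitory receptor, in 74.4% and 85.7% against 19.98% and 21.0%. Foxp3, the gene that defines regulatory T cells, was found in 4 of 39 and 4 of 35 Il10 cells, 10.3% and 11.4%, against 0.332% and 0.178% of other T cells.

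Tgfb1 did not follow the Cd4 class, and Il2 had too few UMIs there to tell. Il2 stood at 3.83 CPM in Control and 5.51 in SAP in the gamma delta class, which held 23 of 52 and 34 of 73 producers, and at 3.02 and 6.57 in the Cd4 class from 2 and 3 cells. The Cd4 class stood at 0.943 (0.111 to 3.58) and 1.22 (0.325 to 3.25) times the other T cells. Over all T cells, Il2 was not shown to be clear of background in either library. In Control its CPM also lay under the level that 3 counts allow in the epithelial reference. Il2 producers carried Cd8a in 71.2% and 78.1%, against 67.1% and 69.4% of other T cells, and Cd4 in 3.85% and 6.85% against 4.52% and 4.90%. In SAP 12 of the 87 Il2 UMIs lay in 1 cell without lineage UMI.

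Tgfb1 was the most even member. It stood at 204 CPM in Control and 203 in SAP without lineage UMI, 199 and 195 in the Cd8a only class, 187 and 186 in the gamma delta class, 157 and 191 in the Cd4 class, 155 and 153 with Cd4 and Cd8, and 136 and 137 in the Cd8b1 class. The interval of the ratio holds 1 in all 6 classes. The 8 Csf1 UMIs of both libraries lay in 8 cells, 4 of them gamma delta.

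Co-production was counted for 8 pairs of members fixed by name. Ifng and Tnf were found together in 93 Control and 103 SAP cells. A Tnf UMI was found in 8.003% of Control Ifng cells (6.51 to 9.72) and 9.89% of SAP Ifng cells (8.15 to 11.9), against 3.13% and 5.04% in cells without Ifng weighted to the same classes. After thinning it was 5.86% and 5.63%, against 1.29% and 1.94% without Ifng. The pair was thus found more often than the class mix gives, in both libraries.

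The Tnf share was higher in cells with more Ifng UMIs. In Control it was 3.08% of cells without Ifng, 5.31% at 1 UMI, 7.99% at 2 to 4, 19.8% at 5 to 9 (12.5 to 28.9) and 17.6% at 10 or more (8.40 to 30.9). In SAP it was 4.08%, 8.02%, 7.89%, 17.9% (10.8 to 27.1) and 33.3% (19.6 to 49.5). The highest bins hold 51 and 42 cells, and their median depth was also higher, 3784 and 4562 UMIs against 3086 and 3385.5 in cells without Ifng; the part of depth in this pattern was not tested beyond the thinned shares.

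**Figure D5:**
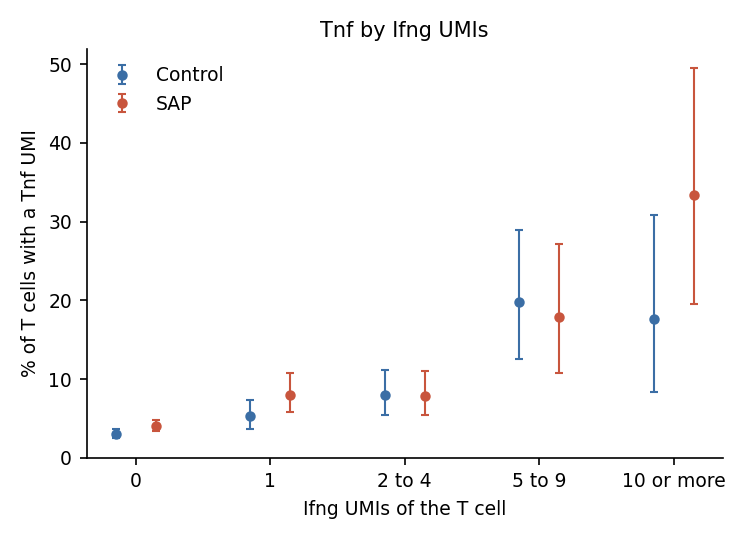
Percent of T cells with a Tnf UMI (y axis) by the number of Ifng UMIs in the same cell (x axis), by library, with exact 95% intervals. Tnf is found in 3.08% and 4.08% of cells without Ifng and in 17.6% or more of cells with 5 or more Ifng UMIs.

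The other pairs rested on few cells. Il17a and Il22 met in 6 of 31 and 10 of 34 Il17a cells, 19.4% (7.45 to 37.5) and 29.4% (15.1 to 47.5), against 0.954% and 0.777% of cells of the same classes without Il17a. Ifng was found in 12 of 31 and 8 of 34 Il17a cells, 38.7% and 23.5%, against 23.6% and 28.8% in the same classes, and in 14 of 39 and 13 of 35 Il10 cells, 35.9% and 37.1%, against 26.7% and 31.5%. The intervals of both shares hold the share of the same classes. So Il22 was set apart in Il17a cells in both libraries, and Ifng was not.

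Il2 met Ifng in 15 and 22 cells and Tnf in 3 and 4, with intervals that hold the share of the same classes. Lta met Ltb in 11 of 16 Control Lta cells, 68.8% (41.3 to 89.0) against 36.0% in the same classes, and in 7 of 21 SAP Lta cells, 33.3% (14.6 to 57.0) against 32.5%. Ifng, Tnf and Il2 were found together in 2 Control and 1 SAP cell. No member was found in 35.0% of T cells of both libraries. Leaving out the broadly detected Ltb and Tgfb1, 2.79% of Control and 3.69% of SAP T cells carried 2 or more of the other 8.

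For the 4 members with at least 100 producing cells per library, the genes most like them across T cells were ranked by the lower of the libraries' Pearson correlations of log-scaled UMIs over 5160 and 4523 cells. All such correlations share the depth of the cell and are weak, and they are given as a description. Ifng went with Gadd45b, a stress and activation gene (0.25 in Control and 0.27 in SAP), Junb and Jun of the AP-1 factors, Nr4a1, an early gene of receptor signals, and Zfp36, which encodes a protein that triggers decay of cytokine transcripts (0.19 and 0.17). Gadd45b stood at 1108 and 1045 CPM in Ifng cells and 496 and 477 CPM in other T cells.

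Tnf went with Gadd45b (0.14 and 0.17), Ifng (0.13 and 0.12), Il7r, the receptor chain of interleukin 7, Cd40lg and Zfp36. Il7r was found in 26.4% and 27.3% of Tnf cells and in 9.53% and 11.2% of the others. Ltb went with Nfkbia (0.23 and 0.22) and Nfkb1, an inhibitor and a subunit of NF-kB, with Tcf7 and Satb1, transcription factors of less differentiated T cells, and with Cd28. Tcf7 was found in 24.5% and 23.6% of Ltb cells and in 6.18% and 7.24% of the others. For Tgfb1 the highest values, 0.11 and 0.11, belonged to Fcer1g, a signalling adaptor, followed by Egr1, Gadd45g, Errfi1 and Isy1.

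For the rare members the producers were set against the other cells, within the Cd4 class for Il17a and Il10. Only genes with a UMI in at least 5 producers of each library were ranked: 390 for Il17a, 616 for Il10 and 4202 for Il2. No such limit was set for the other cells, so a sparse gene entered only where producers carried it. High ratios at the top follow in part from this rule, and they are given as a description. The highest ratio for Il17a was that of Tmem176a, a membrane protein gene, carried by 5 of 9 Control and 6 of 10 SAP producers. It stood at 18.5-fold and 34.8-fold the CPM of other Cd4 cells, from 6 and 36 UMIs in producers and 7 and 10 in the others. Tmem176a was followed by Ckb, Ddit4, Ctla4 and Rab10, the last at 2.56-fold and 2.63-fold. The 10 SAP producers include the 2 cells of 18805 and 15982 UMIs, which held 74 and 37 of their 145 Ctla4 UMIs. The part of these 2 cells in the other ratios was not tested. For Il10 the genes were Osbpl8, Atp6v0b, Nt5e, Il18r1 and Icos, with ratios of 2.44-fold to 4.75-fold. For Il2, over all T cells, they included Rnf141, Dimt1, N6amt1 and Tep1, each carried by 5 to 8 producers per library. No gene met the rule for Il22, with 3 and 7 producers in the Cd4 class.

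Other genes of cytokine biology, in 4 lists, differed little between the libraries. Of 25 further cytokine genes 6 met the expression limit, and 0 of these were 1.5-fold apart, beside 0.201% of all genes, with a median ratio of 1.05. They ran from Mif, an abundant inflammatory cytokine (0.895, 0.861 to 0.930), and Il16 (0.945, 0.848 to 1.05) to Tnfsf8 (1.13, 0.991 to 1.30) and Tgfb3 (1.13, 0.974 to 1.32). Under the limit, and named after their values were seen, Tnfsf11, the gene of RANK ligand, had 25 and 81 UMIs in 20 and 45 cells, a ratio of 3.41 (2.15 to 5.57). Areg, an epithelial growth factor, had 220 and 86 UMIs in 71 and 44 cells, a ratio of 0.411 (0.316 to 0.530), and Csf2, a myeloid growth factor, 46 and 26 UMIs in 30 and 20 cells, a ratio of 0.594 (0.353 to 0.982). Il3, Il6, Il9, Il13 and Il1b had 0 UMIs in both libraries.

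Of 16 receptor genes of the members 8 met the limit, 0 were 1.5-fold apart and their median was 0.946. The lowest were Tnfrsf1a, a Tnf receptor (0.871, 0.793 to 0.956), and Ifngr1 (0.939, 0.911 to 0.968), and the highest Il2rg (1.04, 0.990 to 1.09) and Tgfbr1, a receptor of Tgfb1 (1.26, 1.10 to 1.43). Il22ra1, the receptor of interleukin 22, had 0 UMIs in T cells. Of 23 transcription factors and inducing receptors 13 met the limit, 0 were 1.5-fold apart and the median was 1.02, from Stat3 (0.939, 0.911 to 0.967) and Tbx21, which drives Ifng (0.939, 0.874 to 1.01), to Stat4 (1.11, 1.06 to 1.17) and Ahr, a sensor of the Il22 programme (1.18, 1.10 to 1.28). Of 12 genes of transcript decay and of Tgfb1 activation 8 met the limit, 0 were 1.5-fold apart and the median was 1.05, with Zfp36l1 (0.980, 0.954 to 1.01) and Furin (0.984, 0.936 to 1.03) lowest and Zfp36 (1.10, 1.05 to 1.14) and Itgae (1.10, 1.07 to 1.13) highest.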

How the data were processed

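Single cells of mouse ileum T cells were measured with a 10x 3' kit in 2 libraries, Control and SAP, grouped by their labels. The authors deposited raw UMI counts per gene and barcode, and the matrix headers name Cell Ranger 7.1.0; per the file headers these are whole numbers. The submitters' processing notes also name Seurat and mm10. The annotation version and any filter before deposit: not given in the sources used here. The libraries hold 19142384 (Control) and 19144320 (SAP) UMIs in 5737 and 5203 barcodes.

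Barcodes with at least 500 UMIs, 300 genes and at most 10% mitochondrial UMIs were kept. Scrublet (scanpy 1.11.5) was run at an expected 0.8% doublets per 1000 barcodes; its automatic threshold marked 1 barcode per library and had not worked, so the 257 and 202 highest scores were removed. T cells had at least 2 UMIs, and 0.2% of their UMIs, over 7 receptor genes. Ratios of UMIs scaled to the T cell sum have exact conditional binomial 95% intervals, levels exact Poisson and shares exact Clopper-Pearson intervals (scipy 1.17.1); beside a share or level of 0, the limit given is that of 3 counts. TMM (edgeR 4.0.16) and median-of-ratios (DESeq2 1.42.0) gave scaling factors only. No test between the groups was run, since each has 1 library. Scripts for ratios and correlations were tested on simulated data.

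The named genes are the 10 members; the 2 highest and 2 lowest eligible ratios of each list; the 5 best correlated genes of members with at least 100 producing cells per library; and, for Il17a, Il22, Il10 and Il2, the 5 largest ratios of producers over other cells with at least 5 producers per library, all without mitochondrial, ribosomal, Gm-numbered and Rik genes where genes were ranked; some items that these rules name are not reported here. The members, lists and pairs were chosen with earlier results of these data known. The epithelial reference, the limit of 15000 UMIs and the removal of shared barcodes were chosen after seeing the data.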

Additional observations from a re-analysis of the deposited data

Results flagged for a closer look

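Ifng differed in direction between lineage classes: the SAP over Control ratio was 1.15 in the Cd8b1 class and 0.845 in the gamma delta class, 0.777 in the Cd8a only class and 0.732 in the class with Cd4 and Cd8, each with a counting interval on 1 side of 1. Il17a stood at 1.202 (1.003 to 1.44) in the Cd4 class, where 90 and 57 of the 260 SAP UMIs lay in 2 cells over 15000 UMIs. It stood at 0.244 in the Cd8a only class, where 30 of the 32 Control UMIs lay in 1 cell. Il22 stood at 3.14 in the Cd4 class, where the same 2 cells held 13 and 2 of the 26 SAP UMIs. In the class without lineage UMI Il22 stood at 0.158, and 1 cell held 96 of the 201 Control UMIs. These differences between classes were not tested. Outside the T cells, Tnf stood at 31.8 CPM in Control barcodes, 31 UMIs in 19 of 248 barcodes, above its 18.5 CPM in T cells; in SAP it stood at 11.5 CPM there, below its 22.1 CPM in T cells. The Control barcodes carried T cell markers at 574 CPM and plasma cell markers at 19434 CPM.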

How the results depend on the processing

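Of 272 values recomputed over 104 results, 239 stayed within the counting interval or within 1.5 times a count, and 33 moved. No ratio whose interval excludes 1 changed direction, but some of these intervals came to hold 1. Capped, this held for Ifng (0.925 to 1.04), Il10 (0.528 to 1.05) and Il22 (0.490 to 1.07). For Tnf it held over all retained barcodes (0.935 to 1.26), at 5% mitochondrial UMIs (0.996 to 1.37), and with TMM or median-of-ratios factors (0.969 to 1.32 in both). Among ratios whose interval holds 1, Il17a, at 0.997, was 1.07 with doublets kept, 1.03 capped and 1.06 without shared barcodes. Csf1, at 1.05, was 0.847 with doublets kept. Capped at 5 UMIs per cell, the ratio of Ifng was 0.980 and of Il22 0.727; without the highest cells that of Il17a was 0.848 and of Il22 0.419; over all retained barcodes that of Ltb was 0.795 and of Il17a 0.873; without cells over 15000 UMIs, chosen after seeing the data, that of Il17a was 0.704. Over all retained barcodes the thinned Csf1 share of Control was 0. With 1 Trdc UMI enough for the gamma delta class, its share of producers was 39.9% and 38.3% for Ifng, 42.0% and 42.7% for Ltb and 47.4% and 47.2% for Tgfb1, Control and SAP; with doublets kept it was 34.4% for Ifng in SAP. Asking for 2 UMIs of each gene left, in Control and SAP, 19 and 18 cells for Ifng and Tnf, 0 and 1 for Ifng and Il2, 0 and 1 for Tnf and Il2, 4 and 4 for Il17a and Ifng, 5 and 4 for Il10 and Ifng and 1 and 1 for Lta and Ltb; in SAP it left 6 for Il17a and Il22 and 0 for Ifng and Csf1. Genes at least 1.5-fold higher in SAP numbered 4 with TMM and 4 with median-of-ratios factors, against 7; without the filter on low counts 2779 were higher and 1981 lower, against 4 lower with it, since single UMIs then count. No replicate could be left out.

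No paired analysis was possible because each group has 1 library. The rare members rest on few cells: 4 to 39 cells per library carried Csf1, Lta, Il22, Il10 and Il17a.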
